A study of Mus musculus with 4 samples.

Results

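The genes described here write, remove and read DNA methylation in mouse regulatory T cells. They are the DNA methyltransferases Dnmt1, Dnmt3a and Dnmt3b, the maintenance factor Uhrf1, the TET dioxygenases Tet1, Tet2 and Tet3, the DNA glycosylase Tdg and the methyl-CpG reader Mbd2. They were chosen by name for their part in the methylation state of the Foxp3 enhancer, and all 9 were found among the 50600 gene rows of the files. RNA-seq was available for 4 libraries of 1 group, labelled as biological replicates 1 to 4 of regulatory T cells, a suppressive subset of T cells, from strain C57BL/6NJ. A CD4 T cell differentiation protocol is linked in the labels, the words activated and 72 h stand in the file headers, and sex and age are not given. No label says that the replicates came from separate animals, so p-values measure only the spread between these libraries. There was no other genotype, treatment or time, so genes were compared within each library, and each gene's spread was taken over the 4 libraries.

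Methylation of cytosine in CpG dinucleotides is copied onto the new strand after replication by Dnmt1, which Uhrf1 brings to sites methylated on the old strand only. Dnmt3a and Dnmt3b place methyl groups on sites that had none. TET enzymes oxidise methylcytosine, and the oxidised base is either diluted by replication or cut out by Tdg and replaced by base excision repair. In regulatory T cells an intronic enhancer of Foxp3 can be demethylated, and its demethylation is known for keeping Foxp3 expression stable through cell division. In mice, loss of Tet2 and Tet3 in regulatory T cells is known to destabilise Foxp3. No methylation was measured here, so the state of this enhancer in the libraries described is not known.

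The libraries held 51460018 to 121477975 fragment counts on genes. Foxp3 stood at 471, 408, 450 and 463 TPM (counts per base of exon, brought to a common sum for each library) in replicates 1 to 4, and all 10 genes of a list of regulatory T cell genes (Foxp3, Il2ra, Ctla4, Ikzf2, Ikzf4 and Tnfrsf18) and general T cell genes (Cd4, Cd3e, Cd3g and Trac) reached 1 TPM in every library. Markers of other cells were low or absent in most cases. B cell markers summed to 2.91 to 4.32 TPM, with Cd79b highest at 3.14 ± 0.672 TPM (SD, n = 4), and myeloid markers to 7.10 to 8.76 TPM, with Cd68 highest and Lyz2 and S100a8 at 0 counts. Stromal, endothelial and erythroid markers summed to 12.9 to 14.5 TPM, with Pecam1 highest and Cdh5 and Hbb-bs at 0 counts. Of the 6 CD8 T and NK cell markers, 3 reached 1 TPM in every library, Nkg7 at 145 ± 14.4 TPM, Cd8b1 at 11.5 ± 2.16 TPM and Eomes at 3.34 ± 0.264 TPM, while Cd8a was at 0.243 ± 0.0456 TPM and Ncr1 at 0 counts. The list summed to 144 to 181 TPM, and its part in the levels described here was not tested. Xist was at 173 and 199 TPM in replicates 1 and 2 and at 0.592 and 0.758 TPM in replicates 3 and 4. All 9 genes described here lie on autosomes.

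CpG dinucleotides are the substrate of these enzymes, so the CpG content of the genes' own promoters was read from RefSeq windows of 300 bases, 250 before and 50 after each annotated start (build GRCm38.p6). Windows were read for 8 of the 9 genes, and Mbd2 was left out. A stretch of 200 bases just before the start, free of annotated exons of the gene, is shown for the gene with the highest level, for the gene whose window held the most CpG and for the gene with the lowest level, with each CpG in capitals.
Uhrf1, chr17:56304113-56304312, plus strand: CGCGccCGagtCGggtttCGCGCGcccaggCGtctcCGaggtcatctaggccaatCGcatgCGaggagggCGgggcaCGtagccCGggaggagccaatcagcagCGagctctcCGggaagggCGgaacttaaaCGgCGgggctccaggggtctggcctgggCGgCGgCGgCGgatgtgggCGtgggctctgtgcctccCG
Tet2, chr3:133544391-133544590, minus strand: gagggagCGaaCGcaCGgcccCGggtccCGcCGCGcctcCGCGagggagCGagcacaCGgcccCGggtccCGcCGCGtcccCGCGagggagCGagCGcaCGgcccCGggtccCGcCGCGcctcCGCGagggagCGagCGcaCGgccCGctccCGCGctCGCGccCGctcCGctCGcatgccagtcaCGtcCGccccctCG
Tet1, chr10:62887325-62887524, minus strand: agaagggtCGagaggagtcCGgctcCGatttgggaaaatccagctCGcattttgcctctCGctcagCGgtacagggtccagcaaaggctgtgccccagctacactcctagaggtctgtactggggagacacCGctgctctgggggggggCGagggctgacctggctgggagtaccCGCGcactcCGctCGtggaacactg

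The stretch before the Uhrf1 start held 25 CpG, that before Tet2 40 and that before Tet1 12. Over the whole 300-base window, Tet2 held 57 CpG, more than 99.8% of the 32851 windows in the table, whose median was 7. The window with the most CpG held 47 for Dnmt3a, 33 each for Dnmt1 and Uhrf1, 30 for Dnmt3b, 26 for Tdg, 22 for Tet3 and 17 for Tet1. The window with the most CpG thus lay above the table's median for each of the 8 genes. For Dnmt1, Dnmt3a and Uhrf1 that window was picked from several annotated starts, which favours a high count. Other windows held 12 and 2 CpG for Dnmt1, 46 and 18 for Dnmt3a and 12 for Uhrf1. The Dnmt1 window with 2 CpG lay below the median. The letters TTTNNCGC, a form of the E2F motif searched on both strands, occurred in 5.17% of all windows. Among the 13 windows of these genes they were found in 3, which belonged to Uhrf1, with 1 match in each of its windows, and to Dnmt1, with 3 matches in a window of which 166 of the upstream bases lie in annotated Dnmt1 exons. The letters themselves hold a CpG, so windows rich in CpG can match more often. No share was taken over windows of like CpG content, so the 3 windows cannot be read as an excess. A match describes the letters only, and gene counts do not tell which start was used.

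The maintenance factors had the highest levels. Uhrf1 (chromosome 17, 56303321 to 56323486) stood at 349, 293, 325 and 317 TPM in replicates 1 to 4, a mean of 321 ± 23.2 TPM (SD, n = 4). Dnmt1 (chromosome 9, 20907209 to 20959888) stood at 317, 290, 307 and 305 TPM, a mean of 305 ± 11.3 TPM. Both were above 97% of nuclear protein-coding genes, at percentiles 97.7 for Uhrf1 and 97.6 for Dnmt1, and both were highest in replicate 1 and lowest in replicate 2. In these bulk libraries, fewer cells with a transcript and less RNA per cell cannot be told apart. Dnmt1 lay below Uhrf1 in 4 of 4 libraries by a log2(TPM + 0.1) difference, here called log2 TPM, of -0.07 ± 0.05 (SD, n = 4), which is close to the spread between libraries. The order of these neighbours also depended on the length used, since with the longest annotated transcript in place of all merged exons the difference was 0.01.

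The enzymes of new methylation were lower. Dnmt3a (chromosome 12, 3806007 to 3914443) stood at 62.5, 52.4, 59.5 and 55.4 TPM in replicates 1 to 4, a mean of 57.4 ± 4.45 TPM (SD, n = 4). Dnmt3b (chromosome 2, 153649450 to 153687730) stood at 19.9, 22.4, 19.0 and 23.3 TPM, a mean of 21.2 ± 2.04 TPM. Dnmt3a was highest in replicates 1 and 3, and Dnmt3b in replicates 2 and 4. Dnmt1 exceeded Dnmt3a by 2.41 ± 0.06 on the log2 TPM scale, a 5.31-fold difference, and exceeded Dnmt3b by 3.85 ± 0.17, in 4 of 4 libraries each. The difference of Dnmt3a and Dnmt3b was 1.64, 1.22, 1.64 and 1.24 in replicates 1 to 4, so that the paralogs lay closer together in replicates 2 and 4 than in replicates 1 and 3.

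Dnmt1 accounted for 79.5 ± 0.116% of the summed TPM of the 3 DNA methyltransferase genes (SD, n = 4). Dnmt3a took 15.0 ± 0.659% and Dnmt3b 5.54 ± 0.668%. The Dnmt1 share lay between 79.4% and 79.6% in the 4 libraries, a range narrower than that of Dnmt3b, whose share was 4.99%, 6.14%, 4.92% and 6.09%. The plot of family shares, drawn with merged exons, shows the nearly level Dnmt1 and Tet3 boundaries. With the longest annotated transcript as length, the shares were 75.6% for Dnmt1, 19.5% for Dnmt3a and 4.95% for Dnmt3b. The SD thus covers the spread between libraries and not the choice of length.

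**Figure D1:**
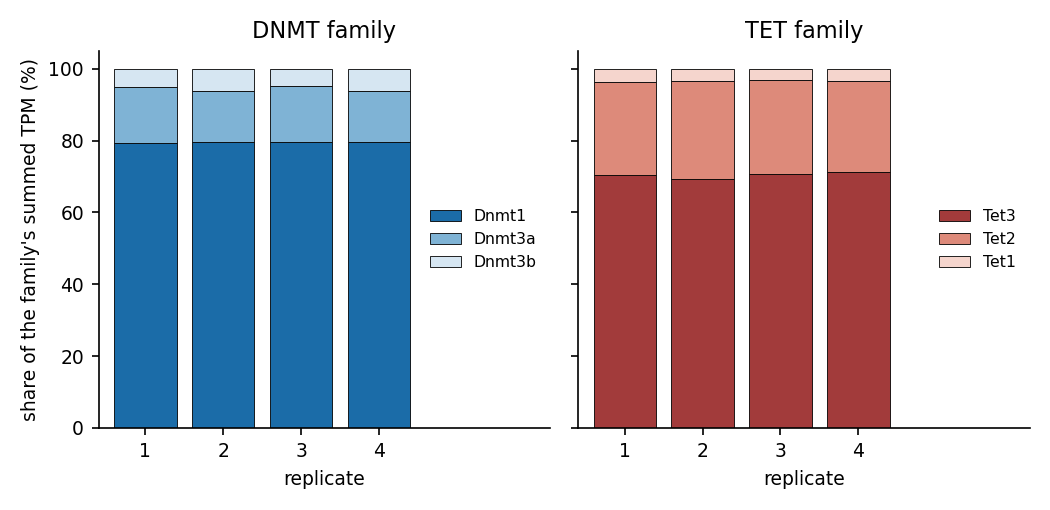
Stacked bars give the share of each paralog in the summed TPM of its family (y axis, %) in replicates 1 to 4 (x axis), with DNA methyltransferases on the left and TET genes on the right. Dnmt1 took 79.4% to 79.6% and Tet3 69.2% to 71.2%.

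Among the TET genes, Tet3 was highest. Tet3 (chromosome 6, 83362373 to 83459084) stood at 32.6, 33.2, 32.0 and 31.8 TPM in replicates 1 to 4, a mean of 32.4 ± 0.608 TPM (SD, n = 4). Its coefficient of variation of 1.88% was the smallest of the 9 genes as measured, and with a GC trend removed, described with the replicates, Dnmt1 had the smallest range. Tet2 (chromosome 3, 133463679 to 133545139) stood at 12.1, 13.1, 11.95 and 11.3 TPM, a mean of 12.1 ± 0.745 TPM. Tet1 (chromosome 10, 62804570 to 62908996) stood at 1.65, 1.69, 1.42 and 1.56 TPM, a mean of 1.58 ± 0.119 TPM, from 891, 460, 473 and 354 counts. The TPM ranges of the 3 TET genes over the libraries did not overlap. Tet1 was thus detected in every library. Among the 10632 nuclear protein-coding genes that reached 1 TPM in every library, it lay at percentile 1.4, Tet2 at 25.2 and Tet3 at 49.9. In this set Uhrf1 lay at percentile 95.4 and Dnmt1 at 95.0. Among all nuclear protein-coding genes, the set used above for Uhrf1 and Dnmt1, Tet1 lay at 51.7, Tet2 at 63.4 and Tet3 at 75.5.

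Tet3 exceeded Tet2 by 1.42 ± 0.06 on the log2 TPM scale and Tet1 by 4.28 ± 0.08, and Tet2 exceeded Tet1 by 2.86 ± 0.09, in 4 of 4 libraries each (SD, n = 4). Tet3 took 70.3 ± 0.858% of the summed TET TPM, Tet2 26.2 ± 0.836% and Tet1 3.43 ± 0.197%. The length used mattered here, since Tet2 has 16870 bases of merged exons and a longest annotated transcript of 9179 bases. With the longest transcripts, Tet2 stood at 17.7 TPM and Tet3 at 39.4 TPM, with Tet3 above Tet2 by 1.15.

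Tdg and Mbd2 act on either side of the methyl mark, Tdg by removing oxidised bases and Mbd2 by binding methylated CpG and bringing in the NuRD repressor complex. Mbd2 (chromosome 18, 70568189 to 70626131) stood at 117, 128, 117 and 118 TPM in replicates 1 to 4, a mean of 120 ± 5.16 TPM (SD, n = 4). Tdg (chromosome 10, 82629828 to 82650799) stood at 23.9, 27.5, 25.05 and 26.1 TPM, a mean of 25.6 ± 1.54 TPM. Both were highest in replicate 2. Tdg lay below Mbd2 by a log2 TPM difference of -2.22 ± 0.05 in 4 of 4 libraries.

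**Figure D2:**
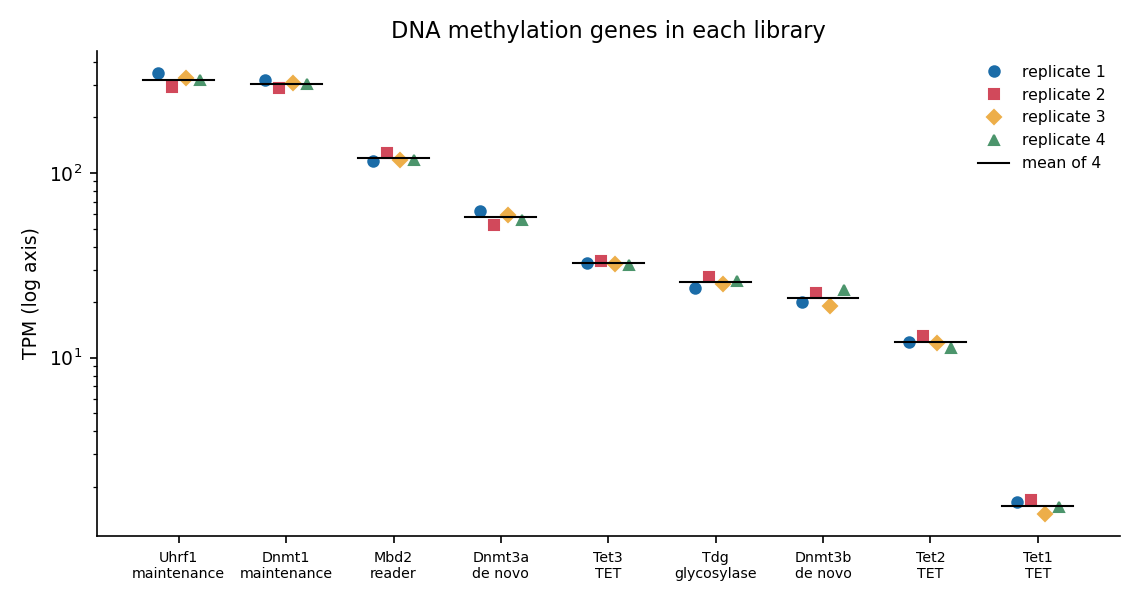
Points give TPM (y axis, log scale) of each gene in replicates 1 to 4, and horizontal lines the mean of the 4 libraries, with genes ordered by mean. The levels run from 321 TPM for Uhrf1 to 1.58 TPM for Tet1, and the 4 points of each gene lie close together.

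Writers were set against erasers within each library. The 3 DNA methyltransferase genes summed to 383 ± 14.4 TPM and the 3 TET genes to 46.1 ± 1.42 TPM (SD, n = 4), a log2 ratio of 3.11, 2.93, 3.09 and 3.10 in replicates 1 to 4 with a mean of 3.05 ± 0.09. Without Dnmt1, the summed TPM of Dnmt3a and Dnmt3b exceeded that of the TET genes by 0.77 ± 0.09 on the log2 scale, a 1.70-fold difference. Dnmt1 thus made up most of the excess over the TET genes. Dnmt3a exceeded Tet3 by 0.82 ± 0.12 on the log2 TPM scale and Tet2 by 2.24 ± 0.17, and Dnmt1 exceeded Tet3 by 3.23 ± 0.07 and Tet2 by 4.64 ± 0.13. With the longest transcripts as length, the mean log2 ratio of the summed families was 2.78, and without Dnmt1 it was 0.75.

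Each of the 12 pairs compared kept its direction in 4 of 4 libraries. An exact permutation test that flipped the signs of the 4 differences (two-sided) gave each pair p = 0.13, the smallest that 4 libraries allow, and the Benjamini-Hochberg adjusted value over the 12 pairs was also 0.13. No pair could therefore pass a threshold of 0.05. In the order of levels, Uhrf1, Dnmt1, Mbd2, Dnmt3a, Tet3, Tdg, Dnmt3b, Tet2 and Tet1, all 8 neighbouring pairs kept their order in every library. The narrowest gaps on the log2 TPM scale after that of Uhrf1 and Dnmt1 were Tdg above Dnmt3b by 0.28 ± 0.10 and Tet3 above Tdg by 0.34 ± 0.08 (SD, n = 4). With the longest transcripts, Dnmt3b exceeded Tet2 by only 0.16 ± 0.17, against 0.80 ± 0.17 with merged exons.

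The spread between libraries was then compared with that of all genes. None of the 9 genes varied beyond genes of its abundance in the edgeR quasi-likelihood dispersion test, with Benjamini-Hochberg adjusted p between 0.965 and 0.999, and 0 of 9 had an unadjusted p under 0.05, against 641 of the 13625 genes tested (4.70%). The test called 0.00734% of the 13625 genes tested, which was the single gene Xist, so a count of 0 members does not set these genes apart. DESeq2 marked 43 of the 13625 genes as dispersion outliers and 0 of the 9, a count that does not set them apart either. The coefficient of variation of TPM lay between 1.88% for Tet3 and 9.62% for Dnmt3b, and 8 of the 9 genes were under 7.80%, the median of nuclear protein-coding genes at 1 TPM in every library, with Dnmt3a close to it at 7.75%. By the range of log2 CPM over the libraries, 6 of the 9 lay under the median of 10639 protein-coding genes.

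Small differences between libraries followed replicate 2 in several genes. On the scale of log2 CPM (counts scaled to library size, after TMM normalization) minus the gene's mean, replicate 2 stood at -0.17 for Uhrf1, -0.17 for Dnmt3a and -0.11 for Dnmt1, its lowest values, and at 0.08 for Tet2, 0.06 for Tdg and 0.05 for Mbd2, where it was the highest library. The libraries also differed by GC content over all genes, replicate 2 most. Across 10639 protein-coding genes, which are not independent replicates, the deviation had a Pearson correlation with transcript GC content of 0.34, -0.48, 0.19 and 0.13 in replicates 1 to 4, given as a description. The deviations of a gene sum to 0 over the libraries, so these values are not independent. In replicate 2 the median deviation was 0.14 in the fifth of genes with the lowest GC and -0.12 in the fifth with the highest. Longest transcripts of Dnmt1, Uhrf1 and Dnmt3a have 54.0%, 53.7% and 52.0% GC, against 43.7% for Tet1 and 45.4% for Tet2. Those of Mbd2, Tet3, Dnmt3b and Tdg have 56.5%, 53.4%, 53.1% and 47.9%. Of the genes not given above, replicate 2 stood at 0.05 for Dnmt3b, -0.01 for Tet3 and 0.06 for Tet1. The genes thus did not all follow their GC content, and its part in these deviations was not tested.

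With each library's median over GC content removed, the range of log2 CPM over the 4 libraries was 0.17 for Uhrf1, against 0.30 as measured, and 0.05 for Dnmt1, against 0.18. Dnmt3a kept a range of 0.20, against 0.30. Tet3 had 0.11, against 0.05. Dnmt3b had 0.27, against 0.26, so its higher level in replicates 2 and 4 was as large after this step. Mbd2, with 56.5% GC, had a range of 0.25, against 0.08 as measured, with replicate 2 at 0.16 above its mean. After this step 6 of the 9 ranges lay under the median of the 10639 protein-coding genes, which was 0.201, against 0.25 as measured. They were not the same 6 genes as before. Tet1 (0.21) and Mbd2 were now above the median, and Uhrf1 and Dnmt3a (0.197) were below it. The plot of deviations shows both versions side by side.

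**Figure D3:**
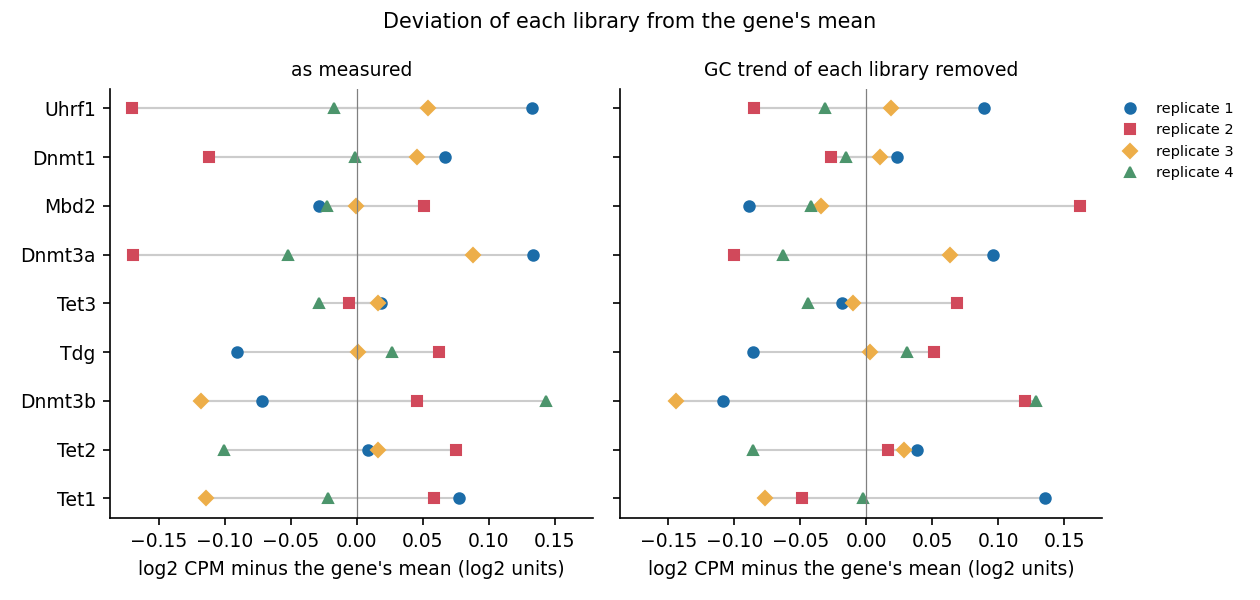
Points give log2 CPM of each library minus the mean of the gene (x axis, log2 units) for each gene (y axis), as measured on the left and with each library's median over 20 bins of transcript GC content removed on the right. Replicate 2 is the lowest point for Uhrf1, Dnmt1 and Dnmt3a in both panels, and the range of Dnmt1 narrows to 0.05, against 0.18 as measured.

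Of the other writers and their cofactors, 8 of 12 reached 1 TPM in every library, with a list median of 75.8 TPM against 1.04 TPM for all nuclear protein-coding genes and 32.5 TPM for those at 1 TPM in every library. The corepressor gene Trim28 (522 ± 28.8 TPM; SD, n = 4), the replication clamp gene Pcna (501 ± 28.7 TPM) and the replication ligase gene Lig1 (267 ± 22.2 TPM) were highest. The germ cell methyltransferase gene Dnmt3c and the oocyte and germ cell factor gene Dppa3 had 0 counts in all libraries, and the cofactor gene Dnmt3l had 1 count in all. A count of 0 allows up to 3 counts, which is 0.0247 to 0.0583 CPM in these libraries and covers counting error only. The Uhrf1 paralog Uhrf2 stood at 40.8 ± 4.71 TPM.

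Genes that supply and recycle the methyl donor S-adenosylmethionine were present in 7 of 8 cases. The synthase gene Mat2a stood at 275 ± 27.8 TPM (SD, n = 4), the hydrolase gene Ahcy, which removes the product that inhibits methyltransferases, at 260 ± 16.3 TPM, and its relative Ahcyl1 at 80.2 ± 7.38 TPM. Mat1a, the synthase gene of liver, had 0 counts. The list median was 49.5 TPM.

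All 9 other MBD family and methyl-CpG reader genes reached 1 TPM in every library, with a list median of 15.5 TPM. Mbd3, a NuRD subunit, was the highest at 295 ± 23.1 TPM (SD, n = 4), above Mbd2, followed by Mbd1 at 71.1 ± 3.28 TPM and Mbd6 at 62.4 ± 2.38 TPM, while Mbd5 was lowest at 5.52 ± 0.492 TPM. All 11 NuRD genes were present, with a list median of 176 TPM. The histone-binding subunit gene Rbbp7 (516 ± 25.1 TPM), the remodelling ATPase gene Chd4 (436 ± 17.2 TPM) and Mta2 (321 ± 7.67 TPM) were highest and Gatad2b was lowest at 48.2 ± 4.88 TPM.

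All 14 genes of a base excision repair list reached 1 TPM in every library, with a list median of 27.3 TPM. The list also holds other glycosylase genes, so its median does not describe only the steps after Tdg. The endonuclease gene Apex1, which cuts the abasic site, stood at 305 ± 11.9 TPM (SD, n = 4) and Parp1 at 211 ± 7.15 TPM, and the glycosylase gene Neil2 was lowest at 1.92 ± 0.404 TPM. The glycosylase gene Mbd4, which like Tdg acts on T opposite G, stood at 12.8 ± 2.17 TPM, below Tdg.

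The TET partner list held TET partner, cofactor supply, CpG-binding and stress genes, so not all of its genes partner TET enzymes or supply their cofactors. Of its genes, 10 of 13 reached 1 TPM in every library, with a list median of 20.6 TPM. The CpG-binding gene Cxxc1 (115 ± 6.53 TPM; SD, n = 4), the sugar transferase gene Ogt, whose product binds TET proteins (103 ± 17.6 TPM), and the isocitrate dehydrogenase gene Idh2 (71.6 ± 3.42 TPM) were highest, and Cxxc4 had 0 counts. Gadd45b, a stress gene linked to active demethylation, had the widest range of log2 CPM among the tested genes of the pathway lists, 1.15. It stood at 87.9, 43.8, 92.5 and 51.7 TPM in replicates 1 to 4, lower in replicates 2 and 4. Dnmt3b was higher in replicates 2 and 4, while Dnmt3a, Lig1 and Mtrr were lower there as well. This split is thus not particular to Gadd45b and Dnmt3b, and a link between genes was not tested. The edgeR quasi-likelihood adjusted p of Gadd45b was 0.749, from an unadjusted 0.000663. No gene of the 7 pathway lists passed the test. An unadjusted p under 0.05 was found for 2 of 11 tested genes of the TET partner list and 2 of 9 of the reader list. The count was 0 of 9 for other writers, 0 of 7 for methyl donor supply and 0 of 11 for NuRD. Base excision repair had 0 of 14 and deaminases 0 of 3. Among all genes tested the share was 4.70%, and such small counts do not set a list apart.

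**Figure D4:**
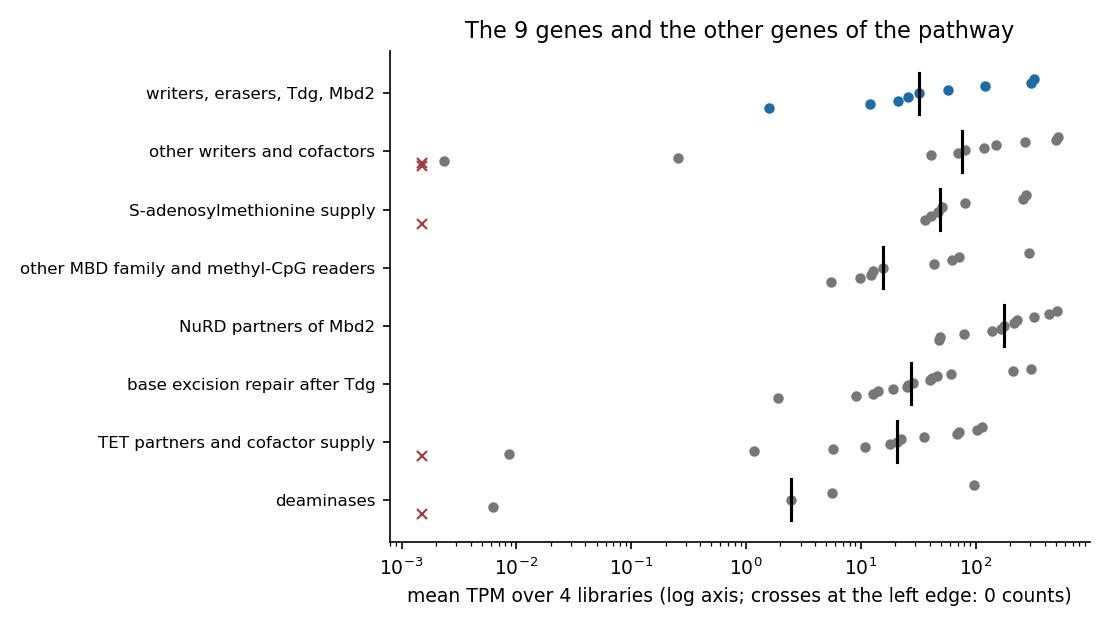
Points give the mean TPM of each gene over the 4 libraries (x axis, log scale) by list (y axis), vertical bars the list median, and red crosses genes with 0 counts. The median of the 9 genes is 32.4 TPM, that of the NuRD list 176 TPM and that of the deaminase list 2.47 TPM.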

How the data were processed

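RNA-seq of 4 libraries of regulatory T cells was analysed. The authors counted fragments per gene with featureCounts 1.4.6-p4 on the GENCODE M13 annotation of mm10, with strand setting 2, per the file headers, and deposited raw counts with the merged exon length of each gene. The assay label reads total RNA-seq, whereas the linked library protocol is for poly(A)+ RNA. The aligner is not given in the sources used here.

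TPM was computed from counts and merged exon lengths over 50600 gene rows, and pairs were compared as log2(TPM + 0.1) within libraries. Detection meant at least 1 TPM in every library. The spread test used edgeR 4.0.16 under R 4.3.3 (quasi-likelihood dispersions after TMM, upper tail, Benjamini-Hochberg threshold 0.05) over 13625 genes that passed a filter on low counts, and the test was checked on simulated data. Prior degrees of freedom of edgeR were set to a common value, because the first version, with values per gene, failed that check and was replaced. DESeq2 1.42.0 was an alternative. Tables were handled in Python 3.11.15. Promoters came from RefSeq GRCm38.p6 windows. Mbd2 is on a chromosome for which no sequence is printed, and its windows were left out of the promoter counts.

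The 9 genes and the lists were chosen with earlier results of these data known. Named list genes were the 3 highest, the lowest, and those at 0 counts or called, apart from items not reported here. Dnmt3l, Uhrf2, Mbd4, Gadd45b and the profile neighbours of Uhrf1 were named after their values were seen. Mtrr and Cd8a were also named outside this rule. Total counts ran from 51460018 to 121477975, and the limit of 3 counts for a count of 0 covers counting error only.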

Additional observations from a re-analysis of the deposited data

Results flagged for a closer look

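In 3 of 29 sets of 4 values, 1 library lay far from the other 3, measured as its gap to the nearest value divided by the whole range. Chance gives this in about 1 of 20 sets, and the sets share genes. Replicate 2 was the library apart in each. For the TPM of Mbd2, with 117, 128, 117 and 118 TPM in replicates 1 to 4, the value was 0.868. For the log2 TPM difference of Dnmt1 and Tet3, with 3.28, 3.12, 3.26 and 3.25, it was 0.862. For the log2 ratio of the summed DNA methyltransferase TPM to the summed TET TPM, with 3.11, 2.93, 3.09 and 3.10, it was 0.891.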

How the results depend on the processing

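The difference of Dnmt1 and Uhrf1 changed sign with the longest annotated transcript as length, to 0.0094 on the log2 scale, with Dnmt1 higher in 3 of 4 libraries. The other 11 pairs kept their direction under every alternative run. With the longest annotated transcript, the mean TPM of 6 of the 9 genes moved by at least its SD. The ratio of the new to the main mean ran from 0.832 to 1.46. With TPM taken over nuclear protein-coding genes only, 8 of the 9 means moved, each by a ratio of 1.08. The number of genes called for spread was 98 of 23106 tested without a filter on low counts and 43 of 13625 as DESeq2 dispersion outliers. It was 1 to 18 with 1 library left out, with 18 of 14003 without replicate 2 and 2 of 13594 without replicate 1. The cause was not tested. None of the 9 genes was called under any of these settings, which does not set them apart, since so few genes were called. Removal of the GC trend was added after seeing the data. No paired analysis was possible because the labels give 1 group. With 4 libraries no pair could reach an exact p of 0.05, and with 3 the smallest exact p was 0.25. Tet1 rested on the fewest counts of the 9 genes, 354 to 891 per library.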

Other observations

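Cytidine deaminase genes, which have been discussed as another route of demethylation, were mostly low. Of 5 genes, 3 reached 1 TPM in every library, and the list median was 2.47 TPM. Apobec3, an antiviral deaminase gene, stood at 97.1 TPM, and Apobec4 had 0 counts in all libraries.

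The genes whose deviations over the 4 libraries lay nearest to those of Dnmt3a, among 11829 candidates, were Tln1, Dus2 and Dhodh, with root mean square differences of 0.0072, 0.0077 and 0.0077 in log2 CPM. For Uhrf1 they were Numa1, Farp2 and Fkbp4, at 0.0055, 0.0065 and 0.0068. With 4 libraries such likeness is a description only. No exon base of the 9 genes was shared with another gene on the same strand. On the opposite strand 133 bases of Dnmt3a exons overlapped Dnmt3aos, 43 of Tet2 overlapped Gm42567, and 367 of Tdg, or 6.83%, overlapped Glt8d2.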
